A study of Mus musculus with 8 samples.

Results

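Type I interferon-stimulated genes were examined in mouse livers as a list of 38 genes matched by symbol. All 38 were among the 15283 genes of the bulk RNA-seq table, and 36 were among the 22578 genes of the nuclei table, where Mx1 and Mx2 were not analysed. The controls were flox/flox mice, and the Tgfbr1 MKO mice carried the same floxed alleles with LysMcre, a Cre recombinase driven from the myeloid Lyz2 locus, which is active in macrophages, monocytes and neutrophils. Both genotypes had been fed a MASH diet, a model of metabolic dysfunction-associated steatohepatitis, for 30 weeks. The labels give 3 bulk liver libraries per genotype and 1 pool of 3 livers per genotype for single-nucleus RNA-seq, and do not state age. The series title frames the comparison around myeloid TGF-beta signalling and liver macrophages.

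Type I interferons bind a receptor made of Ifnar1 and Ifnar2, whose kinases Jak1 and Tyk2 phosphorylate STAT proteins such as Stat2. Stat2 and Irf9 belong to a complex, ISGF3, that enters the nucleus and binds interferon-stimulated response elements in the promoters of its targets. The targets include sensors of foreign RNA and DNA, enzymes and binding proteins that block viral replication, and Irf7, which raises interferon production further. In liver, macrophages, plasmacytoid dendritic cells, endothelial cells and hepatocytes can all respond to these interferons.

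The core of the response element has the letters GAAANNGAAA (reverse complement TTTCNNTTTC), and it was searched on both strands, with overlapping matches allowed, in RefSeq promoter windows of 300 bases from 250 before to 50 after each gene's start (GRCm38.p6). Of the 28 genes with a window, 14 held it (50%), against 3.99% of the 27025 genes with a window. The stretches below are shown because they carry this motif in genes that the bulk comparison called or, for Ifit3b and Isg15, did not call. Capitals mark the motif. Ifit1bl1 (chr19:34602018-34602117, - strand), Oas3 (chr5:120777680-120777779, - strand) and Trim30a (chr7:104465194-104465274, - strand) followed the selection rule. The other 3 were chosen after their values were seen: Ifit3 (chr19:34583328-34583461, + strand) and Ifit3b (chr19:34607724-34607857, + strand) as near copies, and Isg15 (chr4:156200830-156200941, - strand) as a gene with several matches that did not pass the bulk test. Each is printed 5′ to 3′ on the gene's strand and ends before the gene's start.
Ifit1bl1: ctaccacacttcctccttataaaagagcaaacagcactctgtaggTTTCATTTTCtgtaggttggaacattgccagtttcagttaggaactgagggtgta
Oas3: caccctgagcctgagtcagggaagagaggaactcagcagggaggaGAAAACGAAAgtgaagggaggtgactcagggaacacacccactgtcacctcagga
Trim30a: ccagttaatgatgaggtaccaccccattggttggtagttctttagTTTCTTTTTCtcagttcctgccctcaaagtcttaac
Ifit3: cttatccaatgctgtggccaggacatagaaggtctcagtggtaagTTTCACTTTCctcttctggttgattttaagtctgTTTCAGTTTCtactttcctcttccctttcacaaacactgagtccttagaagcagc
Ifit3b: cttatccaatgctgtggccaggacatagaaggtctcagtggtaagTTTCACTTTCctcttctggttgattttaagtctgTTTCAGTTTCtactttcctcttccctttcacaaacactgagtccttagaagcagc
Isg15: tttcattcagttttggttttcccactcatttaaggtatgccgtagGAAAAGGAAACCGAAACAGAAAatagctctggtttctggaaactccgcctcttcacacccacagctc

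The Ifit3 and Ifit3b stretches were identical over all 134 bases and held 2 matches each, and the Isg15 stretch held 3 overlapping matches. Carrying the motif did not separate the genes that rose in bulk liver from the others. Of the 8 called genes with a window, 4 held the motif (Ifit1bl1, Ifit3, Oas3 and Trim30a) and 4 did not (Irf7, Ifit2, Oasl2 and Samhd1). A match describes letters in this window only.

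The deposited bulk values are normalised reads, from 17448117 to 23986319 recovered reads per library, and values by library are given in the order of replicates 1 to 3. Tgfbr1 itself had 737, 810 and 777 normalised reads in the control libraries, against 560, 857 and 735 in the MKO libraries (limma log2 fold change -0.13 ± 0.16, SE, adjusted p = 0.816), so the targeted gene was not called in whole liver. Macrophage-like nuclei had a mean of 13.5 for the control pool against 4.87 for the MKO pool. Both readouts count the whole gene, not the floxed exons. In bulk liver, a change in the number of cells of a type and a change in RNA per cell cannot be told apart.

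In bulk liver, 10 of the 38 genes rose in MKO livers and none fell: Ifit1bl1, Ifi204, Irf7, Samhd1, Oas3, Oasl2, Ifit2, Trim30a, Ifit3 and Oas2. That is 26.3% of the list, against 2.96% of 15249 genes called higher and 0.0853% called lower by limma at an adjusted p under 0.05. The list was chosen with earlier results of these data known, so the contrast with all genes is a description, not a test. The log2 fold change, MKO over control on log2(value + 1), was above 0 for 37 of the 38. Its median over the list was 0.61, beside -0.02 over all genes tested. Every MKO library lay above every control library for 22 of the 38 genes (57.9%), against 10.4% of all genes. No gene of the list was called lower by edgeR or DESeq2, and none had an unadjusted p under 0.05 in that direction. The count rested on few libraries: it was 3 without MKO 3, 4 without MKO 2, 4 without control 2 and 6 without control 3. Irf7, Ifi204 and Ifit1bl1 were called in all 6 fits that left out 1 library.

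**Figure D1:**
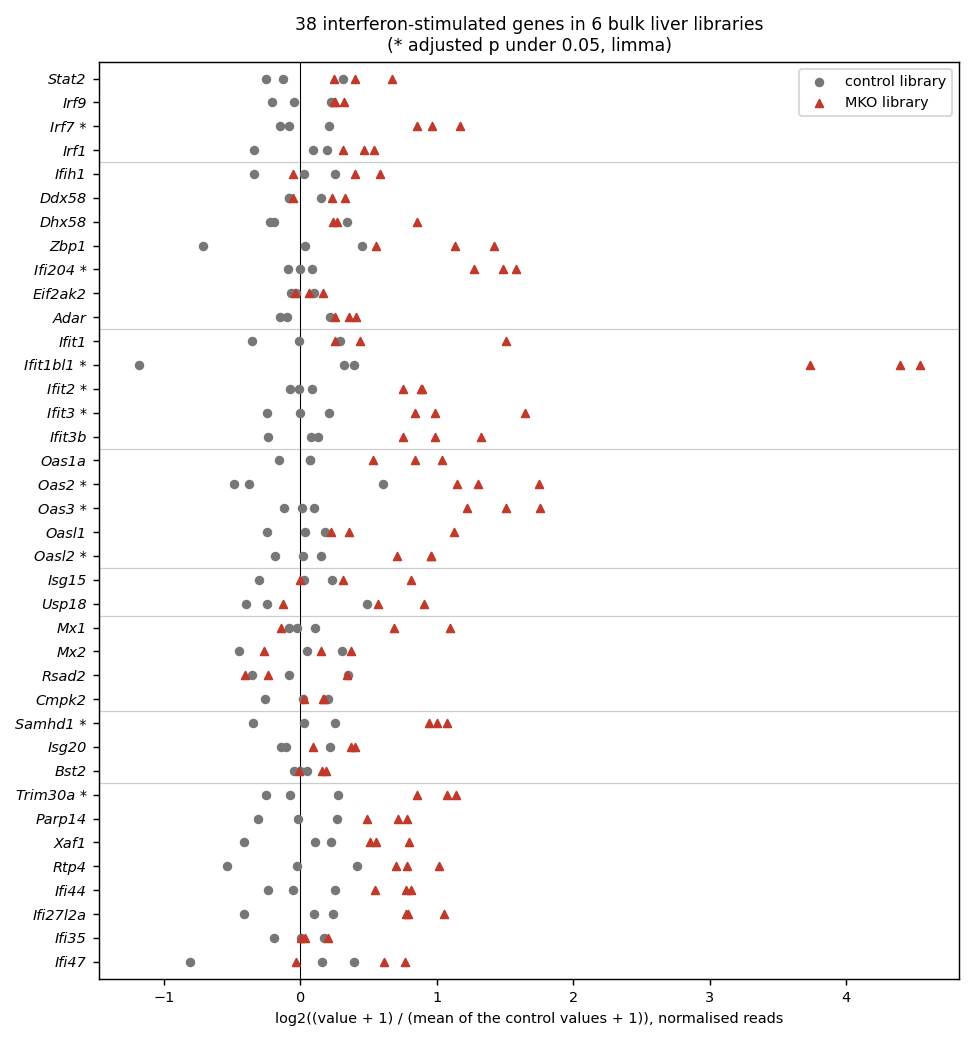
Each row is 1 of the 38 genes in bulk liver, grouped by role, and each point 1 library (grey circles, 3 control; red triangles, 3 MKO), on a log2 axis relative to the mean of the control values with 1 added to each. An asterisk marks the 10 genes with an adjusted p under 0.05 by limma; the red triangles of Ifit1bl1 lie farthest to the right, and those of Mx2, Rsad2, Bst2 and Ifi35 mix with the grey circles.

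Among the transcription factors, Irf7 rose and Stat2, Irf9 and Irf1 did not pass the test. Irf7 (chr7:141262706-141266481), the factor that drives most interferon-alpha genes, had 717, 558 and 587 normalised reads in the control libraries, against 1213, 1122 and 1396 in the MKO libraries. The lowest MKO library was well above the highest control, and the mean went from 621 ± 84.2 to 1244 ± 139 (SD, n = 3 each), which limma put at 1.0 ± 0.14 (log2 fold change ± SE, adjusted p = 0.00685). Stat2 and Irf9, the ISGF3 subunits on the list, had log2 fold changes of 0.46 (limma adjusted p = 0.308) and 0.28 (0.445). Irf1, a factor also induced by interferon-gamma, had 0.46 (0.243), with no overlap between the groups.

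Among the nucleic acid sensors, 1 of 7 rose, and the receptors for viral RNA were not called. Ifi204 (chr1:173747293-173766943), a DNA-binding protein of the HIN-200 family, had 199, 187 and 176 normalised reads in the control libraries, against 454, 526 and 563 in the MKO libraries. Both groups were tight and far apart (187 ± 11.2 and 515 ± 55.6, SD, n = 3 each), and the log2 fold change was 1.45 ± 0.13 by limma (SE, adjusted p = 0.00312), the smallest p of the list. Of its 50-base sequences, 20% also occur in other genes, 14.8% in Ifi211, so the split of reads between them is uncertain. Ifi211 had 56.5, 55.6 and 44.3 normalised reads in the control libraries, against 101, 116 and 112 in the MKO libraries.

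Zbp1, a sensor of Z-form nucleic acids, had 172, 231 and 102 normalised reads in the control libraries, against 248, 452 and 371 in the MKO libraries. Its groups did not overlap, but the spread was wide and limma did not call it (log2 fold change 1.11 ± 0.31, SE, adjusted p = 0.137). Ifih1, which encodes the RNA helicase MDA5, Ddx58 (RIG-I) and Dhx58 (LGP2) had log2 fold changes of 0.33, 0.17 and 0.48. Eif2ak2, the RNA-activated kinase PKR, had 0.07, and Adar, which edits adenosine to inosine in RNA, had 0.35.

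All 5 Ifit genes had positive log2 fold changes and 3 were called. These genes encode RNA-binding proteins that hold back translation of foreign RNA, and they lie close together on chromosome 19 between 34550694 and 34650009. Ifit1bl1 (chr19:34592891-34601956) had 1.09, 5.25 and 4.93 normalised reads in the control libraries, against 62.2, 98.9 and 109.8 in the MKO libraries. It was near the value of 1 read in control 1 and clearly present in every MKO library, a 24.1-fold difference of means. The log2 fold change was 4.38 ± 0.48 by limma (SE, adjusted p = 0.00427). Little of its sequence is shared, 6.45% of its 50-base sequences, mainly with Ifit1bl2.

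In Ifit1, at the far end of the group, MKO 3 alone stood out. It had 142, 90.3 and 115 normalised reads in the control libraries, against 138, 157 and 330.3 in the MKO libraries, and it was not called (log2 fold change 0.75 ± 0.33, SE, limma adjusted p = 0.408). Ifit2 (chr19:34550694-34576419) had 99.9, 89.2 and 93.6 normalised reads in the control libraries, against 159, 176 and 175 in the MKO libraries. Its rise was small and even, with a log2 fold change of 0.85 ± 0.15 by limma (SE, adjusted p = 0.0197). The call needed control 2, control 3, MKO 2 and MKO 3, each of which ended it when left out (highest adjusted p 0.0955).

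Ifit3 (chr19:34583531-34588731) had 131, 155 and 180.3 normalised reads in the control libraries, against 309, 279 and 489 in the MKO libraries. MKO 3 was highest, the groups did not overlap, and the log2 fold change was 1.17 ± 0.23 by limma (SE, adjusted p = 0.029). That call held without control 3 and was lost in each of the other 5 fits with 1 library left out (up to 0.108). Its copy Ifit3b had 44.5, 46.2 and 35.5 normalised reads in the control libraries, against 84.2, 71.4 and 107 in the MKO libraries, just outside the threshold (log2 fold change 1.03, adjusted p = 0.0533). The pair share 51.2% of the 50-base sequences of Ifit3, so reads may be split between them in either direction. Their summed values were 198 ± 20.2 and 447 ± 131 (SD, n = 3 each), and the summed values of the groups did not overlap either.

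All 5 Oas genes had MKO libraries above every control library, and 3 were called. Oas1a, Oas2 and Oas3 encode enzymes that make oligoadenylates, the activators of RNase L, and Oasl1 and Oasl2 encode related proteins. Oas2 (chr5:120730333-120749853) had 127, 64 and 59.1 normalised reads in the control libraries, against 283, 186 and 207 in the MKO libraries. Library 1 was the highest of its group in both genotypes, and the log2 fold change was 1.49 ± 0.30 by limma (SE, adjusted p = 0.0356). That call held without control 1 and was lost in each of the other 5 fits with 1 library left out (up to 0.144).

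Oas3 (chr5:120753098-120777661) had 20.6, 22 and 18.7 normalised reads in the control libraries, against 59.8, 49 and 71.3 in the MKO libraries. With tighter controls it had the same log2 fold change as Oas2, 1.49 ± 0.25 (SE, limma adjusted p = 0.0147). Leaving out control 2 or MKO 3 ended the call (highest adjusted p 0.0846). Oasl2 (chr5:114896936-114912234) had 151, 119.7 and 138 normalised reads in the control libraries, against 266, 223 and 266 in the MKO libraries, with a log2 fold change of 0.88 ± 0.15 by limma (SE, adjusted p = 0.0188). Its groups were separate, and leaving out any of control 2, control 3, MKO 2 and MKO 3 ended the call (highest adjusted p 0.0909).

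Oas1a and Oasl1 were not called by limma. Oas1a had a log2 fold change of 0.81 (adjusted p = 0.0627), and 57.6% of its 50-base sequences also occur in Oas1g. Summed over Oas1a and Oas1g, the values were 123, 110 and 98.6 in the control libraries and 159, 227 and 217 in the MKO libraries, a 1.82-fold difference of means. Oasl1 had a log2 fold change of 0.58 (adjusted p = 0.402), with 299.5 in MKO 3 against 175 and 160.1 in MKO 1 and MKO 2.

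Neither gene of the Isg15 system, and none of Mx1, Mx2, Rsad2 and Cmpk2, was called by limma, edgeR or DESeq2, and 0 of these 6 had an unadjusted p under 0.05. Isg15, a ubiquitin-like protein joined to other proteins, had 216, 187 and 149 normalised reads in the control libraries, against 184, 229 and 323 in the MKO libraries. The groups overlapped, since MKO 1 lay under 2 controls (log2 fold change 0.39 ± 0.23, SE, limma adjusted p = 0.569). Usp18, which removes Isg15 and dampens the receptor, also overlapped (0.50, adjusted p = 0.591).

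Mx1, a dynamin-like GTPase, had 60.8, 55.6 and 53.2 normalised reads in the control libraries, against 122, 51 and 91.5 in the MKO libraries. MKO 2 was the lowest of all 6 libraries, and Mx1 was not called (log2 fold change 0.55 ± 0.31, SE, limma adjusted p = 0.55). Mx2, its neighbour on chromosome 16, had 0.12. Rsad2, which encodes viperin, and Cmpk2, a nucleotide kinase, are adjacent on chromosome 12 and had -0.07 and 0.14. Rsad2 was the only gene of the 38 with a negative value, and it had 339, 280.3 and 458 normalised reads in the control libraries, against 305, 271 and 455 in the MKO libraries. Its sign turned to 0.12 without control 3 and to 0.08 without MKO 2.

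Samhd1 (chr2:157097533-157135265), which hydrolyses the deoxynucleotides that viruses need, had 671, 573 and 442 normalised reads in the control libraries, against 1079, 1183 and 1124 in the MKO libraries. The MKO libraries were close together (1129 ± 52.2, against 562 ± 115 in the controls, SD, n = 3 each). The log2 fold change was 1.02 ± 0.16 by limma (SE, adjusted p = 0.0107), and the gene was no longer called when MKO 2 or MKO 3 was left out (highest adjusted p 0.0591). Bst2, the membrane tether of budding virions, was the most abundant of the 38 in normalised reads not corrected for length, at 3783 ± 125 and 4100 ± 303, with a log2 fold change of 0.11. Isg20, an exonuclease, had 0.30, and neither was called.

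In the last group of effectors 1 of 8 was called and 6 of 8 had separate groups. Trim30a (chr7:104409025-104465193), of the tripartite-motif family, had 88, 60.9 and 69 normalised reads in the control libraries, against 132, 161 and 154 in the MKO libraries, with a log2 fold change of 1.04 ± 0.19 by limma (SE, adjusted p = 0.0244). Leaving out any of control 2, control 3, MKO 2 and MKO 3 ended its call (highest adjusted p 0.119). Parp14, an ADP-ribosyltransferase, had 0.68 (adjusted p = 0.0691), Ifi27l2a 0.90 (0.0877), Rtp4 0.88 (0.101), Ifi44 0.72 (0.114) and Xaf1 0.64 (0.209). Ifi35 (0.09) and the GTPase gene Ifi47 (0.54) had overlapping groups. DESeq2 called 6 more of the 38 than limma: Parp14, Zbp1, Ifit3b, Oas1a, Rtp4 and Ifi27l2a (adjusted p from 0.00818 to 0.0325). Its 16 calls stood against 4.16% of 15245 genes called higher. Of the 38, 18 were higher at an adjusted p under 0.05 in the authors' deposited table, against 4.99% of 15276 genes.

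Over all 38 genes, the mean deviation from each gene's mean (log2) ran over -0.24, -0.36 and -0.51 for the control libraries, against 0.26, 0.32 and 0.54 for the MKO libraries. MKO 3 was the highest library for 19 genes and control 3 the lowest for 23. The number of genes above every control was 25 in MKO 1, 31 in MKO 2 and 34 in MKO 3. The libraries differed within each genotype as well as between them.

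Upstream of these genes, the receptor subunits were not called. Ifnar1 was read at 895 ± 16.2 and 901 ± 48.5 (SD, n = 3 each; log2 fold change 0.01) and Ifnar2 at 2144 ± 157 and 1943 ± 14.2 (-0.14). Of the 6 ligands and receptors tested, limma, edgeR and DESeq2 called none, and 2 had an unadjusted p under 0.05. The interferon genes Ifna1, Ifna2, Ifna4, Ifnb1, Ifne, Ifnk, Ifnz, Ifng, Ifnl2 and Ifnl3 were not analysed here.

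Of the 16 kinases, STAT and IRF proteins and their inhibitors outside the list, 1 rose by limma: Ptpn6, the phosphatase SHP-1 (0.90, adjusted p = 0.0111). Among 21 sensing genes 6 rose, namely Tlr7 (1.46), Tlr8 (2.31) and Tlr4 (1.51), which are Toll-like receptors, Ticam2 (1.68), an adaptor of Tlr4, Unc93b1 (0.73), which carries Toll-like receptors to endosomes, and Aim2 (1.42), a sensor of cytosolic DNA. Of 57 further interferon-stimulated genes 11 rose: Epsti1 (1.70), Ifi209 (1.63), Slfn1 (1.54), Gbp3 (1.53), Ifi30 (1.38), Ifi207 (1.31), Gbp7 (1.26), Slfn8 (1.11), Phf11d (1.0), Sp110 (0.97) and Ifi203 (0.75). In all, 18 of 100 such pathway genes rose and none fell, against 2.96% of all genes called higher and 0.0853% called lower. These lists too were chosen with earlier results of these data known, so this contrast is also a description. Their median log2 fold change was 0.42, beside -0.02 over all genes tested. The count of 18 was 4 without MKO 2, 5 without MKO 3, 7 without control 2 and 10 without control 3.

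Markers of several leukocyte types moved with genotype in the same libraries. Of 14 macrophage markers 8 rose by limma (median log2 fold change 1.53), and their summed level was 4516 to 10149 in the controls and 13102 to 18981 in the MKO livers. Of 12 T and NK cell markers 3 rose (158 to 259 against 389 to 608), and of 9 conventional dendritic cell markers 3 rose (357 to 453 against 729 to 804). Of 5 neutrophil markers 1 rose, Csf3r (sum 136 to 151 against 211 to 297), and without it the other 4 summed to 60.8, 70.3 and 67.0 in the control libraries, against 54.9, 145 and 92.5 in the MKO libraries. No B-lineage marker was called of 7 (151 to 472 against 224 to 402), and 6 of them had positive log2 fold changes (median of the 7, 0.52). The exception was Jchain, a plasma cell gene, at a log2 fold change of -2.72 (limma adjusted p = 0.101). No plasmacytoid dendritic cell marker was called of 7 (782 to 903 against 666 to 825), and no hepatocyte marker of 10. Most of the plasmacytoid dendritic cell sum was Tcf4 (means 459.9 and 442, control first) and Ly6d (259 and 177). The others had low values and moved both ways, for example Runx2 (log2 fold change 1.16, limma adjusted p = 0.0682) and Ccr9 (-0.66, 0.548). None of these markers was at 0 in any library, and their part in the bulk result was not tested.

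In the nuclei, 24 of the 36 genes were at least 2-fold higher in macrophage-like than in hepatocyte-like clusters of the control pool with 0.1 added to both values, and 31 with nothing added. The nuclei values are means per cluster, in columns that each sum to 10000, for 13 clusters and 1 pool per genotype, which leaves no replicates for a test, and the sources used here do not give the number of nuclei behind a mean or how doublets were treated. Clusters were named from fixed markers. Clusters 0, 1 and 3 were hepatocyte-like, with 6, 4 and 4 of 10 hepatocyte markers enriched 2-fold over the clusters that were not. Cluster 2 was macrophage-like (14 of 14 macrophage markers enriched), 4 sinusoidal endothelial-like, 5 stellate-like, 6 bile duct-like, 7 T and NK-like and 8 B-like. Cluster 9 was vascular endothelial-like, 10 dividing-like, 11 plasmacytoid dendritic cell-like and 12 mesothelial-like. Dividing-like nuclei also had 11 of 14 macrophage markers enriched.

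In the control pool, the summed mean of the 36 genes was 29.7 in the macrophage-like cluster, 21.8 in the plasmacytoid dendritic cell-like, 16.6 in the sinusoidal endothelial-like and 16.2 in the stellate-like cluster. It was 5.53, 6.42 and 5.59 in the hepatocyte-like clusters. The macrophage-like cluster had the highest mean of 9 of the 36 genes, and so did the plasmacytoid dendritic cell-like cluster. Oas2 had 1.38 in the macrophage-like cluster and a mean of 0.00152 over the hepatocyte-like clusters, and Ifi204 had 3.31 and 0.00498. Stat2 and Rtp4 were exceptions, with 1.45 and 0.880 in hepatocyte-like nuclei against 1.39 and 0.678 in macrophage-like nuclei.

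**Figure D2:**
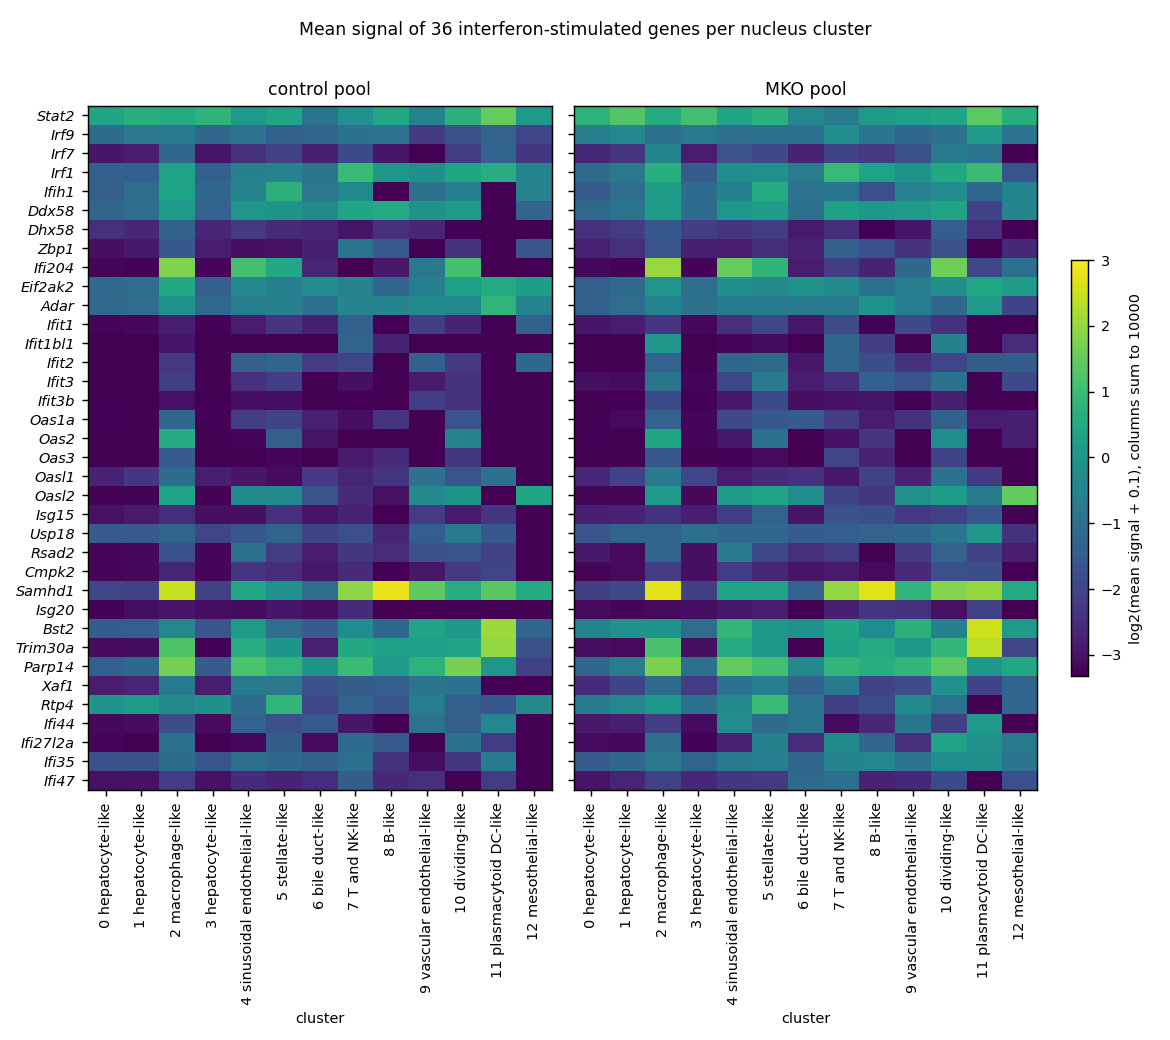
Colour gives log2(mean signal + 0.1) of 36 genes (rows) in 13 nucleus clusters (columns), for the control pool (left) and the MKO pool (right), with 1 pool of 3 livers each. Ifi204, Samhd1, Oas2, Trim30a and Parp14 are bright in the macrophage-like column and dark or dim in the hepatocyte-like columns of both pools, and the Ifit1bl1 cell of the macrophage-like column is bright only in the MKO pool.

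Most genes called in bulk liver were those richer in macrophage-like than in hepatocyte-like nuclei, a division chosen after the data were seen. Of 24 genes at least 2-fold higher in the macrophage-like cluster of the control pool (0.1 added to both values), 9 were called in bulk, with a median bulk log2 fold change of 0.77. Of the other 12, 1 was called, Ifit1bl1, and the median was 0.48. With nothing added, the 31 genes at least 2-fold higher held all 10 called genes, Ifit1bl1 among them. Over all genes the same division gave medians of 0.33 (2081 genes) and -0.06 (12239 genes). Across the 36 genes Spearman's rho between this enrichment and the bulk change was 0.33, and across all 14320 genes it was 0.34. These are descriptions, since genes share the same libraries. The division sets macrophage-like nuclei against hepatocyte-like nuclei only, and other clusters also held the called genes. In the control pool Irf7, Ifi204, Ifit3, Oas2 and Oas3 were highest in the macrophage-like cluster. Samhd1 was highest in B-like, Trim30a in plasmacytoid dendritic cell-like, Oasl2 and Ifit2 in mesothelial-like and Ifit1bl1 in T and NK-like nuclei.

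**Figure D3:**
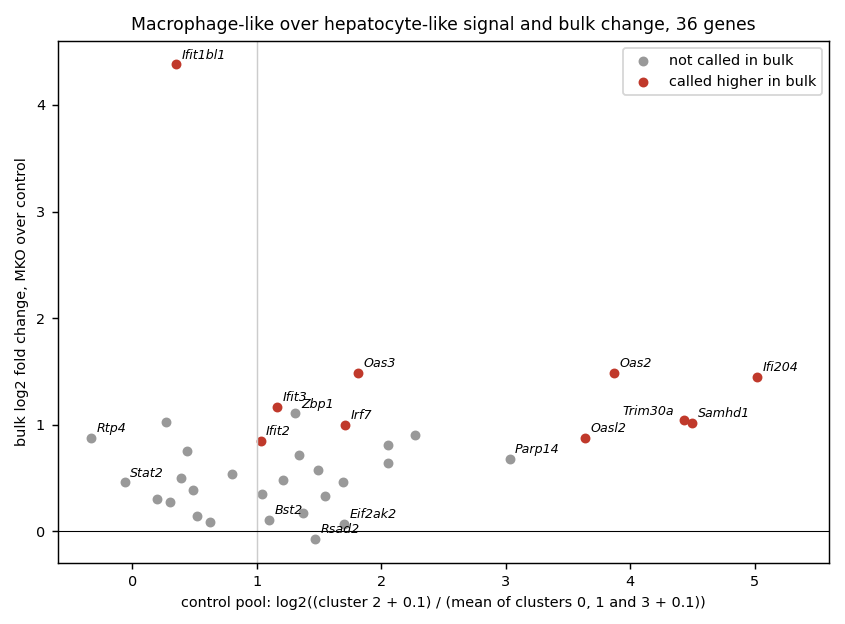
Each point is 1 of 36 genes, with its log2 ratio of macrophage-like to hepatocyte-like signal in the control pool on the horizontal axis (0.1 added to both, grey line at 2-fold) and its bulk log2 fold change on the vertical axis. Of the 10 red points (called in bulk), 9 lie right of the grey line, and Ifit1bl1 lies left of it at a bulk log2 fold change of 4.38.

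Within the macrophage-like cluster the genes did not move together. Of 36 genes, 18 had a higher mean in the MKO pool (50%), against 51.9% of all genes with a value there. Only 5 reached the 90th percentile of that cluster's values (1.44), the level above which ratios were taken, and none differed by 2-fold. With the control pool given first, Samhd1 had 5.35 and 6.44, Ifi204 3.31 and 4.0, Parp14 3.09 and 3.25, Trim30a 2.29 and 2.19, and Irf1 1.14 and 1.46. Oas2 (1.38 and 1.23), Oasl2 (1.18 and 1.02) and Oas3 (0.251 and 0.229), all called higher in bulk, were slightly lower in the MKO pool. In this cluster the macrophage markers summed to 69.8 and 79.8, sinusoidal endothelial markers to 4.49 and 10.5 and vascular endothelial markers to 3.5 and 10.9, and their part in these values was not tested.

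The 5 Ifit genes all had means at least 2-fold higher in macrophage-like nuclei of the MKO pool, at low values, and Ifit1bl1 showed the widest gap. For Ifit1bl1 control nuclei had a mean of 0.0283 and MKO nuclei 0.923, below the level at which ratios were taken by default. With the level set at the 75th percentile its log2 ratio was 3.67. In the control pool its highest cluster was the T and NK-like one, where it had 0.305 and, in the MKO pool, 0.342. Dividing-like nuclei had 0 and 0.572, and the hepatocyte-like clusters stayed at or under 0.00124 in both pools. In macrophage-like nuclei Ifit3 had 0.127 and 0.437, Ifit3b 0.0215 and 0.166, Ifit2 0.108 and 0.296 and Ifit1 0.0449 and 0.0966, with the control pool first, and Irf7 had 0.336 and 0.621. These genes, Ifit1bl1 included, were named here after their values were seen. Higher Ifit means were not particular to macrophage-like nuclei. In hepatocyte-like cluster 0 all 5 Ifit genes were also at least 2-fold higher in the MKO pool, at values of 0.0310 or less. Ifit3 was higher in 12 clusters and lower in 0, with 0.121 and 0.519 in stellate-like nuclei. The share of all genes at least 2-fold higher, with no level set, was not computed.

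Outside the macrophage-like cluster the share of genes with a higher mean in the MKO pool was larger. It was 33 of 36 in the stellate-like cluster (91.7%, all genes 50.4%), 30 of 36 in hepatocyte-like cluster 3 (83.3%, all genes 52.9%) and 29 of 36 in the sinusoidal endothelial-like cluster (80.6%, all genes 48.4%). Hepatocyte-like clusters 0 and 1 had 28 of 36 (all genes 50.1%) and 28 of 35 with a value (all genes 51.6%). The dividing-like cluster, also rich in macrophage markers, had 28 of 36 (all genes 52.9%), and the plasmacytoid dendritic cell-like 23 of 29 (54.7%). The B-like cluster had 24 of 35 (49.0%), the bile duct-like 21 of 34 (46.8%) and the vascular endothelial-like 20 of 33 (52.5%). The mesothelial-like cluster had 18 of 28 (64.3%, all genes 58.3%) and the T and NK-like 21 of 36 (58.3%, all genes 52.8%), nearer to their backgrounds. In the B-like, plasmacytoid dendritic cell-like and mesothelial-like clusters, some genes with a higher MKO mean had a control mean of 0. An example is Ifit3 in B-like nuclei (0 and 0.285). A mean of 0 in the MKO pool alone was rarer there, as for Rtp4 in plasmacytoid dendritic cell-like nuclei (0.236 and 0). Summed over the list, the mean went from 16.2 to 21.5 in stellate-like, 16.6 to 20.8 in sinusoidal endothelial-like and 29.7 to 33.1 in macrophage-like nuclei.

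**Figure D4:**
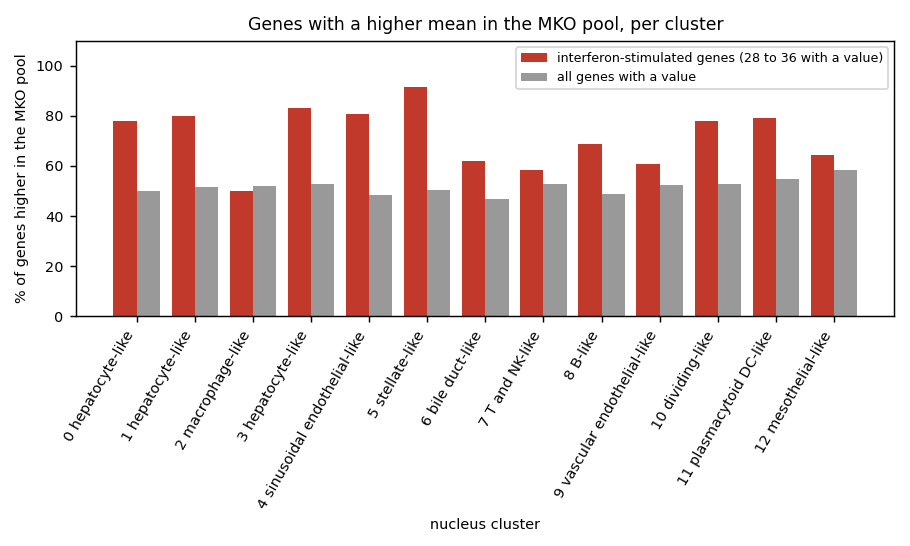
Bars give, for each of 13 nucleus clusters, the percentage of the interferon-stimulated genes (red) and of all genes with a value (grey) whose mean was higher in the MKO pool than in the control pool. The red bar exceeds the grey one in 12 clusters, most in the stellate-like one (91.7% against 50.4%), and not in the macrophage-like one (50% against 51.9%).

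Most of these shifts lay at low values, below the level for ratios, so the pairs above it do not describe their size. Of 446 pairs of a gene and a cluster with a value, 32 were at or above that level. With a lower level 135 pairs were, and 17 of those differed by 2-fold or more, all higher in the MKO pool. The share over all genes at the lower level was not computed. Of the 32 pairs, 2 differed by 2-fold or more (6.25%), against 7.22% of such pairs over all genes. Samhd1 in dividing-like nuclei had 1.43 and 3.44 (log2 ratio 1.16), where macrophage markers summed to 29.8 and 57.5. Oasl2 in mesothelial-like nuclei had 1.23 and 2.67 (1.0), where sinusoidal endothelial markers summed to 0.902 and 7.23. Stat2 led the hepatocyte-like clusters, with 1.22 and 1.59 in cluster 0, 1.5 and 2.39 in cluster 1 and 1.63 and 2.08 in cluster 3.

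Bst2 had a higher mean in the MKO pool in 12 of 13 clusters, for example 4.12 and 5.72 in plasmacytoid dendritic cell-like, 0.995 and 1.72 in sinusoidal endothelial-like and 0.377 and 0.939 in stellate-like nuclei. Its bulk level had hardly differed. Ifi35 was higher in 13 of 13 clusters, again with a bulk log2 fold change of 0.09. All 13 clusters come from the same pool per genotype, and the share of all genes higher in as many clusters was not computed. Hepatocyte markers also summed higher in the MKO pool in 12 of 13 clusters, the exception being hepatocyte-like cluster 1 (208 and 192). The 12 took in every cluster that was not hepatocyte-like, where these markers should be lacking. Macrophage-like nuclei had 54.0 and 76.3, and stellate-like nuclei 53.0 and 85.7. The part of these markers in the shifts was not tested.

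**Figure D5:**
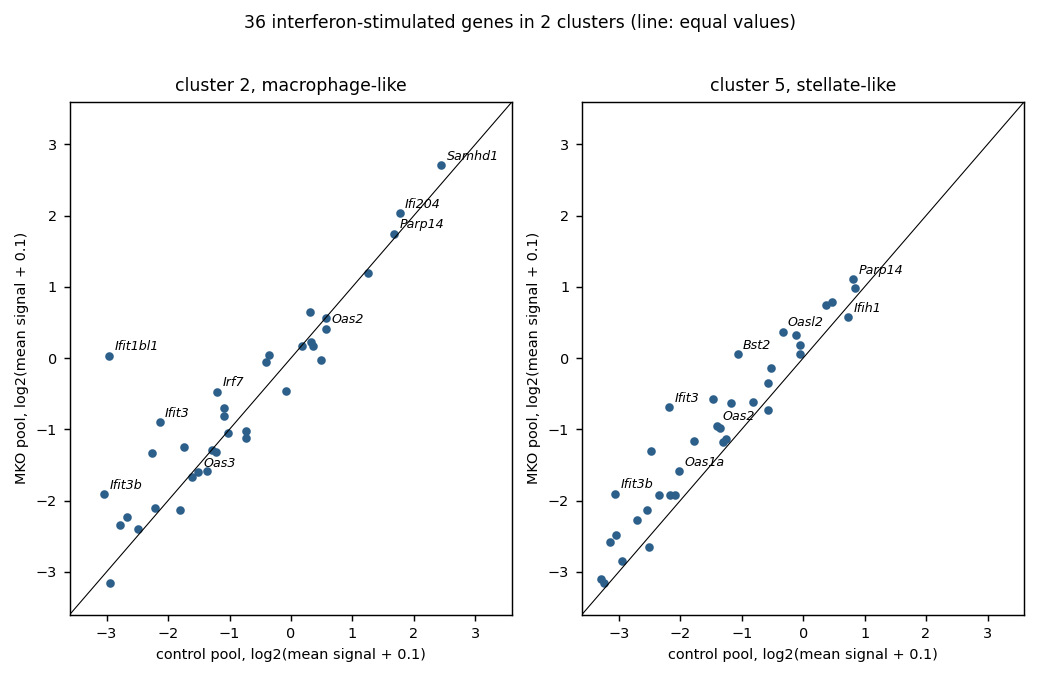
Each point is 1 of 36 genes, with log2(mean signal + 0.1) in the control pool on the horizontal and in the MKO pool on the vertical axis, for macrophage-like (left) and stellate-like nuclei (right); the line marks equal values. In macrophage-like nuclei the points scatter on both sides of the line with Ifit1bl1 far above it, and in stellate-like nuclei 33 of 36 lie above it.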

How the data were processed

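Per the submitters' processing notes, the build was mm10 and the tools included STAR, RSEM 1.3.3, FastQC, DESeq2, Seurat 4.0.1 and Cell Ranger, in roles that the sources used here do not give. Bulk values, as deposited, are a signal: reads per gene over a size factor of the library, and 100% of them came out as whole reads within 0.01. Nuclei values, as deposited, are also a signal, averaged by cluster and pool, with no depth. The authors' deposited table of log2 fold changes and p-values was used for a count of calls only.

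The test was limma-trend (limma 3.58.1, R 4.3.3) on log2(value + 1) over the 15249 genes with a mean of at least 1, leaving out 34, with Benjamini-Hochberg adjustment over all of them. The pseudocount understates the change of low genes. edgeR 4.0.16 and DESeq2 1.42.0 on recovered reads were alternatives, and the fits were tested on simulated data. Separate animals are not stated for the libraries, and p-values cover only the spread among these samples, which may be technical. No library was a duplicate: pairs differed by a chi-square of 28.1 to 73.1 for each degree of freedom. Nuclei ratios were taken where the larger value reached the 90th percentile of its cluster, with that level divided by 10 added to both. Positions came from a GENCODE annotation of GRCm38, and shared sequence from its transcripts.

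The 38 genes and all lists were chosen with earlier results of these data known. Named were all called genes, the gene with the smallest p of each role without a call, the called pathway genes with Ifnar1 and Ifnar2, and in nuclei the genes at the level for ratios that were past 2-fold, the highest per cluster or, in macrophage-like nuclei, all of them. 1 gene that this rule takes is not reported here. Genes named beyond this were chosen after their values were seen. 10 genes of the list had no promoter entry, among them Ifi204 and Oas2.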

Additional observations from a re-analysis of the deposited data

How the results depend on the processing

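The count of 10 called genes of the 38 stayed within 1.5 times under other pseudocounts, filters and scalings and with edgeR, and was 16 with DESeq2 (634 of all genes, against 452 by limma); leaving out 1 library gave 3 to 11. Other pathway genes called were 30 with DESeq2 and 4 to 19 with 1 library left out. Over all genes, 175 to 410 were called higher with 1 library left out. Genes called lower were 5 with libraries scaled to equal totals, 50 with DESeq2 and 5 to 31 with 1 library left out. The log2 fold change of Mx2 ran from -0.09 to 0.29, of Rsad2 from -0.29 to 0.12 and of Ifi35 from -0.01 to 0.18 with 1 library left out. In nuclei, 17 pairs of a gene and a cluster passed 2-fold with the level at the 75th percentile, all higher in the MKO pool. The share over all genes at that lower level was not computed. With a larger pseudocount 1 pair passed. The causes were not tested beyond the smaller number of samples.

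The labels share replicate numbers between genotypes, but same-numbered libraries did not deviate together over all genes (correlations 0.06, -0.03 and -0.11). Not every library correlated best with its own number. The labels do not state a pairing, and 3 libraries per group are too few for this check to exclude one. With a replicate block 8 of the 10 genes were called, and Ifit2 (0.0617) and Trim30a (0.0589) were not. Groups of 3 libraries, and cluster means without counts, limit the precision.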
